A study of Mus musculus with 12 samples.

Results

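The difference between small intestine with and without busulfan was taken over both levels of a second treatment, AOS. All 12 libraries of the series entered the comparison. The 6 libraries with busulfan were set against the 6 libraries without it, and the AOS level, 0 or 10, was a term of the model. The libraries were chosen by their treatment labels, not by measured values. Of 16942 genes in the deposited table, 12329 passed the filter on low counts and were tested.

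RNA was sequenced from small intestine of ICR mice, an outbred strain. There were 4 groups of 3 libraries. AOS0 and AOS10 had no busulfan and differed in their AOS level. B+A0 and B+A10 had busulfan with the same levels of AOS. The sources used here do not give the meaning of AOS, the unit of 0 and 10, the busulfan dose, the interval to tissue collection, or the age and sex of the mice. Whether replicates are different mice is not stated, so p-values here measure only the spread between samples, which may be technical. Each sample was a mixture of cells, in which fewer cells of a type and less RNA per cell cannot be told apart. The labels do not say which layers of the gut wall were taken.

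Busulfan is an alkylating agent that crosslinks DNA and is used to deplete bone marrow and germ cells. Cells with misfolded protein in the cytosol raise their heat shock proteins through the transcription factor HSF1, which binds inverted repeats of a short heat shock unit. Cells with misfolded protein in the endoplasmic reticulum raise reticulum chaperones in the unfolded protein response, in part through ATF6 and XBP1 at endoplasmic reticulum stress elements. In the small intestine the secretory cells, such as Paneth and goblet cells, carry a high load of protein through the reticulum.

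Total counts ran from 13560232 to 16818245 per library. Between 12594 and 12889 genes had at least 5 counts in a library. On the first principal component, which held 28.4% of the variance, B+A0 replicates 2 and 3 stood apart from the rest at 25.9 and 38.7. The 6 libraries without busulfan lay between -23.5 and -9.18 on that axis, and B+A10 replicate 2 lay among them at -11.6. The epithelial marker Vil1, a brush border protein, had a median CPM (counts relative to library size, scaled by TMM factors) of 2204 without busulfan and 2029 with it. Epcam, an epithelial adhesion molecule, had medians of 1568 and 1519 CPM, and none of 5 pancreatic acinar markers in the table reached the filter. The 8 smooth muscle markers summed to 20.7 to 31.5 CPM per library, so how much of the muscle wall the samples held is uncertain. Hoxb9, a gene whose level marks position along the gut, had 7.67 to 17.3 CPM in AOS0 and 0.364 to 5.31 in the other 9 libraries. All 6 tested HoxB genes had a log2 fold change below 0 in the joint model and 0 were called. The joint values average unlike levels, as the median of these genes was -3.085 at AOS 0 and 1.01 at AOS 10. Before adjustment, 4 of the 6 had an interaction p under 0.05 in edgeR, against 6.85% of all genes. Their part in the busulfan differences was not tested.

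With busulfan, 343 genes were higher and 244 were lower at an adjusted p under 0.05 (edgeR quasi-likelihood test, Benjamini-Hochberg). That was 2.78% and 1.98% of the genes tested. Most of the differences were small. The median log2 fold change was 0.36 among the genes called higher and -0.49 among those called lower, and 16 rises and 38 falls were larger than 2-fold. Before adjustment 22.9% of genes tested had a p under 0.05. The 6 busulfan libraries did not overlap the 6 others for 333 of the 587 called genes (4.76% of those tested) and for 423 genes tested (3.43%), of which 276 lay above (2.24%) and 147 below (1.19%). Heat shock and reticulum chaperones were the groups with the largest share of members called higher, and mast cell markers the group with the largest share called lower. Some mast cell markers passed the filter only through libraries without busulfan, which favours that share.

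The number of calls depended on which libraries were present. Leaving out both B+A0 libraries that stand apart left 54 genes higher and 6 lower, and 58 of those 60 were among the 587. Leaving out AOS0 replicate 1 gave 156 higher and 100 lower, replicate 2 gave 227 and 124, and replicate 3 gave 170 and 70. Without AOS10 replicate 2 the counts were 195 and 102, and without AOS10 replicate 3 they were 190 and 111. Leaving out B+A0 replicate 2 gave 154 and 74, and leaving out replicate 3 of that group gave 214 and 96. Without B+A10 replicate 1 they were 155 and 104. They grew to 626 and 560 without B+A10 replicate 2, and to 713 and 470 without B+A10 replicate 3. On deposited FPKM values, limma called 586 genes, of which 61.4% were lower, against 41.6% of the 587.

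**Figure D1:**
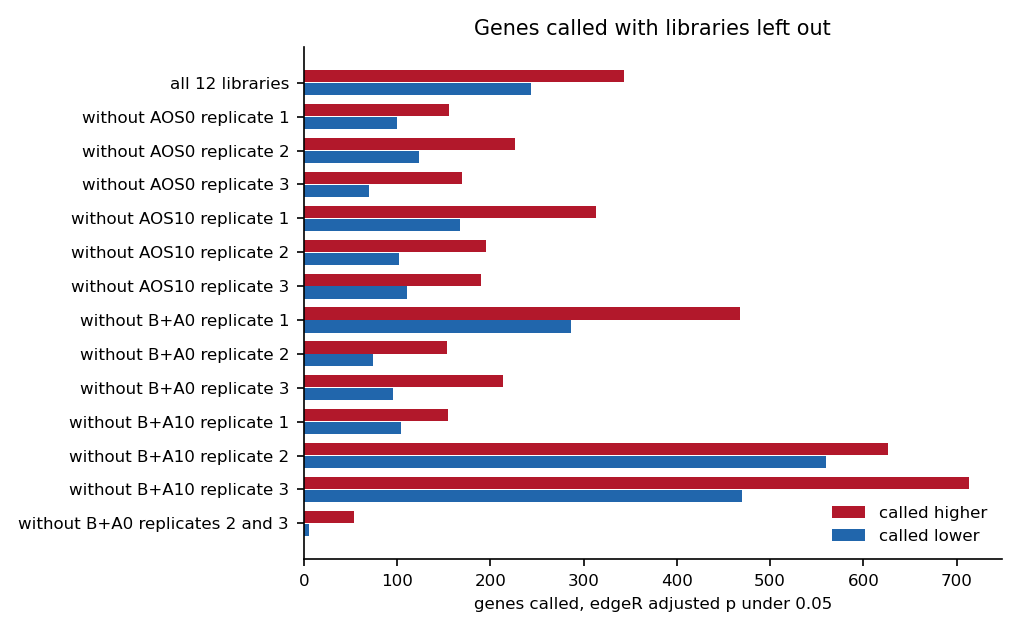
Number of genes called higher (red) and lower (blue) with busulfan at an edgeR adjusted p under 0.05, with all 12 libraries, with each library left out, and without B+A0 replicates 2 and 3. The bars for all libraries stand at 343 and 244. The shortest pair, 54 and 6, is the one without both B+A0 libraries.

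Cytosolic and mitochondrial heat shock proteins fold new and damaged protein. Of 22 tested members of that list, 16 were higher with busulfan and 0 were lower, against 2.78% higher among all genes tested. The list had 25 genes in the table. The median log2 fold change of the tested members was 0.75, against -4.4e-05 for all genes tested. For 13 members the busulfan libraries all lay above the rest, against 2.24% of genes tested. The count was 11 without both B+A0 libraries that stand apart.

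The promoters of 3 of these genes are shown because the genes rose with busulfan and their windows hold heat shock motifs. The sequences are the 250 bases before the RefSeq transcript start on assembly GRCm38.p6, written in the direction of the gene. Capitals mark matches to a full heat shock element, which is GAANNTTC followed by NNGAA, or to a pair of its units, GAANNTTC or TTCNNGAA, on either strand. Both pair motifs lie within the full element, so its matches also hold them.
Hsph1 (chr5:149636337-149636586, minus strand): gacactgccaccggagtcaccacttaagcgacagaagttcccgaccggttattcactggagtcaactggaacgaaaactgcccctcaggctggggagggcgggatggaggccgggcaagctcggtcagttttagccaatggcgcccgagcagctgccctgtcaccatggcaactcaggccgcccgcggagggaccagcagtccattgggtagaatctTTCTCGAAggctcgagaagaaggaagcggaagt
Hspa1a (chr17:34972157-34972406, minus strand): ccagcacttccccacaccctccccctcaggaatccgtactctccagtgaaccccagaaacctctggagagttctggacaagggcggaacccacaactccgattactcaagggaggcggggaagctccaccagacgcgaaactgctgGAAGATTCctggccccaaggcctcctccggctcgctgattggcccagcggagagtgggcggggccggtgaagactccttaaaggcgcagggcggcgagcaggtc
Hspd1 (chr1:55087933-55088182, minus strand): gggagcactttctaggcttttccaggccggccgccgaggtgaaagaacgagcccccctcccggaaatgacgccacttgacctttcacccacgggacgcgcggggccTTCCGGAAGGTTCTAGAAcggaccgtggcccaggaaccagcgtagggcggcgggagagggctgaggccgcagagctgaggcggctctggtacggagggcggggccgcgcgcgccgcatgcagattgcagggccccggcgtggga

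The full element was found in 2 of the 17 heat shock genes with a promoter window, Hspd1 and Hspe1. These genes lie head to head on chromosome 1 and share the matched bases. Over all 9897 tested genes with a window, 44 held the element, which is 0.445%. The pair GAANNTTC was found in 6 of the 17 (35.3%), against 6.05% of all windows, and in 5 of the 12 members called higher. The pair TTCNNGAA was found in 4 of the 17 (23.5%), against 7.07%, and 2 of those 4 were called higher. Hspd1 and Hspe1 were counted for both pairs with the same bases. Hspa1a and Hspa1b, near-identical copies, were both counted for GAANNTTC. The matches are thus not all separate sites, and these shares count some sites more than once. A match is a run of letters in a window, and binding was not measured.

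Hsph1, which encodes HSP105, a nucleotide exchange factor for HSP70, had the smallest p of all genes. Its gene lies on chromosome 5 at 149616843 to 149636498. Without busulfan it had 81.7 CPM in the lowest library, a median of 130.0 and 148.1 in the highest. With busulfan it had 268.4, 460.9 and 678.8. Every busulfan library was thus above every other library, and B+A10 replicates 1 and 3 were the highest. The log2 fold change was 1.99 (SE 0.18, edgeR adjusted p = 2.291e-04).

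Hspa8, the constitutive HSP70 of the cytosol, ran from 1986 to 2509 CPM without busulfan, with a median of 2305. With busulfan it ran from 3577 to 4695, with a median of 4496. The groups did not overlap, and the log2 fold change was 0.89 (SE 0.08, edgeR adjusted p = 2.291e-04). The stress-inducible HSP70 genes Hspa1a and Hspa1b rose by 1.83 and 1.85 on the log2 scale. Hspa1a ran from 53.03 to 144.9 CPM without busulfan and from 147.6 to 616.5 with it. These genes are near-identical copies, with the same base at 247 of 250 promoter positions, so how the counting divided reads between them is uncertain. Without busulfan, AOS10 replicate 1 had the highest level of Hspa1b, 376.0 CPM, above the 354.4 of B+A0 replicate 1.

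Cochaperones of HSP70 and HSP90 were also higher. Stip1, which links the HSP70 and HSP90 machines, had medians of 205.2 CPM without busulfan and 376.3 with it (log2 fold change 0.82). Bag3, a cochaperone of HSP70, had medians of 86.7 and 163.4 CPM (0.97). Chordc1, an HSP90 cochaperone, had medians of 45.0 and 90.8 CPM (1.04). For each of these 3 the 6 busulfan libraries lay above the 6 others.

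Hspa4l, an exchange factor of the HSP110 family, rose by 1.09 on the log2 scale, with 104.9 CPM in B+A10 replicate 3 against 33.8 or less without busulfan. Dnaja1 and Dnajb1, J-domain proteins that hand clients to HSP70, rose by 0.92 and 0.91. Hsp90aa1, the inducible HSP90, rose by 0.93, and Hsp90ab1, the constitutive form, by 0.51. Ahsa1, which stimulates the ATPase of HSP90, rose by 0.69, and the immunophilin Fkbp4 by 0.45. Hspd1, the chaperonin of mitochondria, rose by 0.45, while its partner Hspe1 had a log2 fold change of 0.43 that missed the threshold (edgeR adjusted p = 0.052). Hsf1, the transcription factor of this response, had medians of 31.6 CPM without busulfan and 39.9 with it (log2 fold change 0.34). Hsf2 was at -0.14 on the log2 scale (edgeR adjusted p = 0.584), and Hspa4, Hspa9, Hspa14 and Dnajb4 did not pass the test either.

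**Figure D2:**
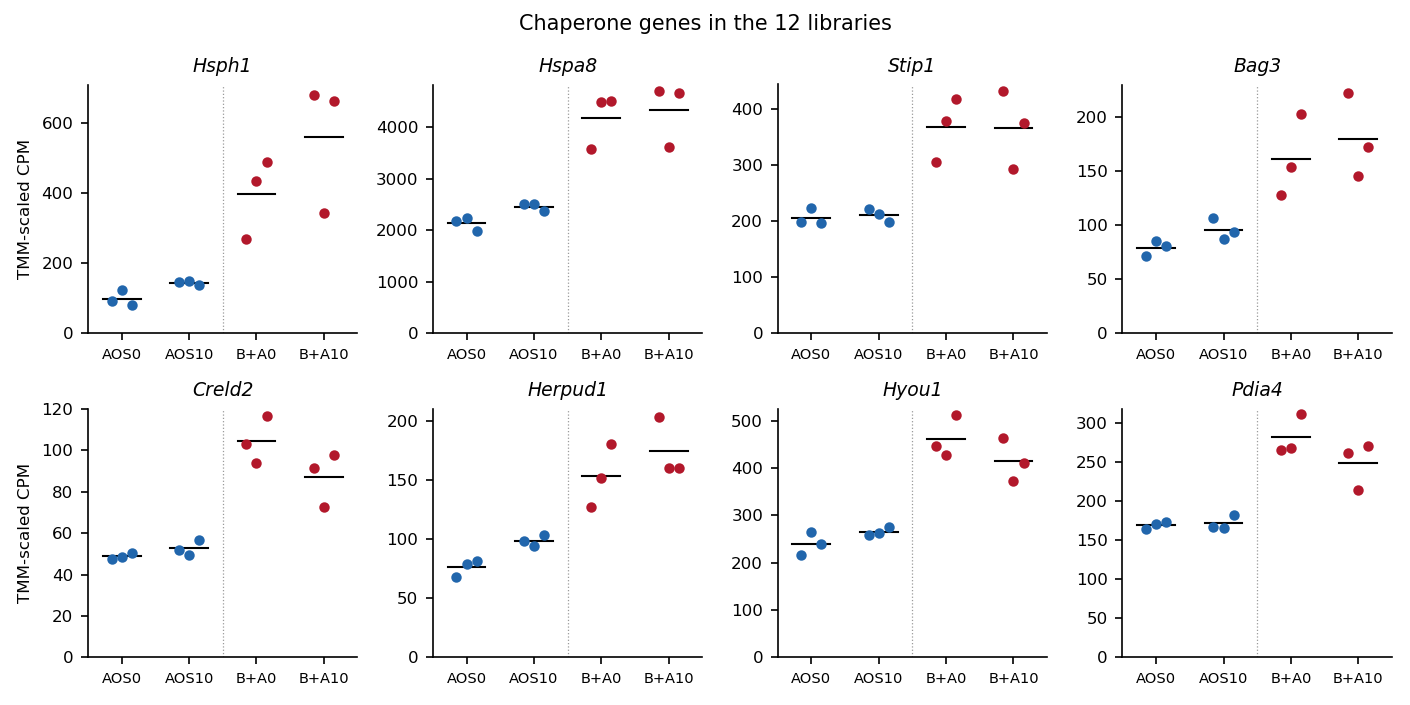
TMM-scaled CPM of 4 cytosolic chaperone genes (upper row) and 4 endoplasmic reticulum genes (lower row) in each library, by group. Points are libraries, blue without and red with busulfan, and black lines are group means of 3. All red points lie above all blue points in each panel, with Hsph1 at 81.7 to 148.1 without and 268.4 to 678.8 with busulfan.

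Reticulum chaperones and genes of the unfolded protein response formed the other large group. Of 32 tested members, 18 were higher, against 2.78% of genes tested, and 0 were lower, with a median log2 fold change of 0.32. For 17 members the busulfan libraries all lay above the others, against 2.24% of genes tested. The count was 10 without both B+A0 libraries that stand apart and ran from 13 to 21 with each library left out in turn.

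The windows of 6 genes called higher and 1 not called, Hsp90b1, are shown because each holds the endoplasmic reticulum stress element, which is CCAAT, then 9 bases of any kind, then CCACG. Capitals mark its matches on either strand, and none of them overlaps a heat shock motif. Source, length and direction are as above.
Hspa5 (chr2:34771840-34772089, plus strand): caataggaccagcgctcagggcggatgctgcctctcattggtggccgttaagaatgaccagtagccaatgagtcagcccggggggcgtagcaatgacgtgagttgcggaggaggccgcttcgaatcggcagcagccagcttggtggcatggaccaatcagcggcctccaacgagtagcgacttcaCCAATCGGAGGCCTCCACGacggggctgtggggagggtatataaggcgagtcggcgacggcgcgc
Creld2 (chr15:88819396-88819645, plus strand): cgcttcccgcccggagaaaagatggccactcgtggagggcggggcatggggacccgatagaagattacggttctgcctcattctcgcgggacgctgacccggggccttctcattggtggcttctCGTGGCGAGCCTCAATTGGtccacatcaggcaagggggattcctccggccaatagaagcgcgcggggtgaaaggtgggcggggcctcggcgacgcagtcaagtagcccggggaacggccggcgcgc
Syvn1 (chr19:6046326-6046575, plus strand): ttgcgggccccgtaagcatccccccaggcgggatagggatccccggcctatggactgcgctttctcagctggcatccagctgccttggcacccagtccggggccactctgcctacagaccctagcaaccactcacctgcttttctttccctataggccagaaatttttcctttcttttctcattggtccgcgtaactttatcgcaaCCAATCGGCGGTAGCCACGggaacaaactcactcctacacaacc
Calr (chr8:84846932-84847181, minus strand): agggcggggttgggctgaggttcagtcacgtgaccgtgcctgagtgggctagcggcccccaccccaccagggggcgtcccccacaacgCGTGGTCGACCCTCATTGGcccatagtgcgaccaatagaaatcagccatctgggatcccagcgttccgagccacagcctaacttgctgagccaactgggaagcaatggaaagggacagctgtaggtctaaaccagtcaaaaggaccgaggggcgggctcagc
Canx (chr11:50325674-50325923, minus strand): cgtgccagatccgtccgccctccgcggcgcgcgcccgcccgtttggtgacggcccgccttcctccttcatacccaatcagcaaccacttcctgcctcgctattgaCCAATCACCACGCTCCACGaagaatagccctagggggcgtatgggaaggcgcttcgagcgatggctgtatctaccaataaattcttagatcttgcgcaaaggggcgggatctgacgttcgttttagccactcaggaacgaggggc
Dnajc3 (chr14:118937682-118937931, plus strand): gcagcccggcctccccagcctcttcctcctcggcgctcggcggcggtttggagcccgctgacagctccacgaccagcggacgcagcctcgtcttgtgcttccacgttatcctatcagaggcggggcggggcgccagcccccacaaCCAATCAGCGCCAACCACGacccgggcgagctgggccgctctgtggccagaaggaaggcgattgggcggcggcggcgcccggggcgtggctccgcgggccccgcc
Hsp90b1 (chr10:86705445-86705694, minus strand): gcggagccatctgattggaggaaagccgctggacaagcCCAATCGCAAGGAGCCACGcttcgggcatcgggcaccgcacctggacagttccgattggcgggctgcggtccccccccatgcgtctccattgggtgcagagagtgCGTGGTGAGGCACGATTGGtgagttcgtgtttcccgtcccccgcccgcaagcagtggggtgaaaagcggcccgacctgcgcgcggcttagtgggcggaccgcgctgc

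The element was found in 10 of 27 genes of the list with a window (37%), against 17 of all 9897 (0.172%). It was found in 6 of 16 members called higher and in 4 of 11 not called, so its share was close in both. None of the 27 windows held a heat shock element or a pair of its units. Of all 277 genes called higher with a window, 7 held the stress element (2.53%), as did 0 of 187 genes called lower.

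Creld2, a protein of the reticulum that is induced by reticulum stress, lies on chromosome 15 at 88819646 to 88826681. It ran from 47.5 to 56.9 CPM without busulfan, with a median of 49.8. With busulfan it ran from 72.8 to 116.7, with a median of 95.7. The groups did not overlap, B+A10 replicate 2 was the lowest of the busulfan libraries, and the log2 fold change was 0.91 (SE 0.09, edgeR adjusted p = 2.824e-04). Hspa5, which encodes BiP, the main HSP70 of the reticulum, ran from 632.9 to 765.0 CPM without busulfan and from 862.6 to 1256 with it. Its log2 fold change was 0.66.

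Of the members that act in clearing misfolded protein from the reticulum, Herpud1, Syvn1 and Sel1l rose, and Edem1, Derl1, Derl2, Derl3 and Selenos did not pass. Herpud1, a component of the retrotranslocation complex, had medians of 87.7 CPM without busulfan and 159.7 with it (log2 fold change 0.92, SE 0.09). Syvn1, the ubiquitin ligase HRD1, had medians of 107.0 and 163.3 CPM (0.63), and its adaptor Sel1l rose by 0.32. Hyou1, an HSP70-like chaperone of the lumen, had medians of 260.5 and 436.7 CPM (0.80). Pdia4, a disulfide isomerase, had medians of 168.6 and 266.9 CPM (0.64). The groups of Herpud1, Syvn1, Hyou1 and Pdia4 did not overlap.

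Further members were smaller in their change. The BiP cochaperones Dnajb11, Sdf2l1, Dnajb9 and Dnajc3 rose by 0.52, 0.68, 0.45 and 0.37 on the log2 scale, and Manf, a secreted stress factor, by 0.53. The lectin chaperones Calr and Canx rose by 0.38 and 0.31. Xbp1, a transcription factor of the response, ran from 182.1 to 224.4 CPM without busulfan and from 243.4 to 281.5 with it. Ern1, the sensor IRE1, rose by 0.22 with overlapping groups. Hsp90b1, the HSP90 of the reticulum, had a log2 fold change of 0.38 that missed the threshold (edgeR adjusted p = 0.073).

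Atp2a2, the calcium pump SERCA2 that fills the reticulum, was among the 5 rises with the smallest p. It had 404.9 CPM in the lowest library without busulfan, a median of 457.2 and 480.9 in the highest. With busulfan it had 629.1, 677.6 and 703.6, and the groups did not overlap (log2 fold change 0.57, SE 0.05, edgeR adjusted p = 2.824e-04). Uggt1, the glucosyltransferase that marks misfolded glycoproteins, was chosen after its values were seen. It ran from 155.8 to 179.0 CPM without busulfan and from 211.9 to 234.9 with it.

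The integrated stress response lowers translation and raises amino acid genes through ATF4. Of 24 tested members, 3 were higher and 1 was lower, against 2.78% and 1.98% of genes tested. Chac1, which breaks down glutathione, had 1.62 to 5.59 CPM without busulfan and 4.14 to 10.97 with it, with overlapping groups and a log2 fold change of 1.51. Slc7a5, the large neutral amino acid transporter, rose by 0.76 and Psat1, of serine synthesis, by 0.43. Ddit3, which encodes CHOP, fell by 0.29. Gdf15 had a log2 fold change of 0.95 (edgeR adjusted p = 0.146). Psat1 lost its call without any 1 of AOS0 and AOS10 replicates 3, AOS0 replicate 1, AOS10 replicate 2, B+A0 replicates 2 and 3 or B+A10 replicate 1, and its edgeR adjusted p was 0.266 without both B+A0 replicates 2 and 3. Ddit3 lost it without any 1 of AOS0 replicates 1 and 3, AOS10 replicates 1, 2 and 3 or B+A0 replicates 2 and 3, and its edgeR adjusted p was 0.198 without both of the latter. The list had 5 members higher when either B+A0 replicate 1 or B+A10 replicate 3 was left out.

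Banp, a DNA-binding nuclear protein, had the fourth largest rise among genes called with groups apart and a mean of at least 1 CPM, apart from unnamed models. It lies on chromosome 8 at 121947972 to 122029260. Its level was 9.76 to 12.7 CPM in AOS0 and 22.6 to 22.9 in AOS10. In B+A0 it was 34.8 to 44.9, and in B+A10 37.6 to 60.9. The busulfan groups thus lay above both other groups, which themselves did not overlap. The log2 fold change was 1.43 (SE 0.15, edgeR adjusted p = 2.824e-04), with 1.79 at AOS 0 and 1.11 at AOS 10. The interaction did not pass (edgeR adjusted p = 0.564).

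P4ha1, the catalytic subunit of collagen prolyl 4-hydroxylase, had medians of 4.44 CPM without busulfan and 13.7 with it (log2 fold change 1.64, SE 0.17, edgeR adjusted p = 3.481e-04). P4ha2, its paralog, had medians of 1.17 and 2.32 CPM (1.01). Serpinh1, the collagen chaperone HSP47, was chosen after its values were seen, and rose by 1.24 with overlapping groups. Of 7 tested fibroblast and matrix markers, which include the collagens, 0 were called in either direction by edgeR, with 3 at an unadjusted p under 0.05, against 22.9% of all genes. DESeq2 called 2 of them lower, and called 1215 of all 12329 genes, of which 42.3% were lower. P4ha2 had an adjusted p of up to 0.105 over the alternatives.

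Other named rises were Spsb1, an adaptor of a ubiquitin ligase, by 1.05, Wnt11, a Wnt ligand, by 1.19, and Spry4, an inhibitor of receptor tyrosine kinase signalling, by 1.35. Wnt11 and Spry4 had medians of 2.12 and 2.27 CPM with busulfan, and each lost its call without 1 library, AOS0 replicate 1 for Wnt11 and AOS0 replicate 3 for Spry4. Spsb1 ran from 25.4 to 55.0 CPM without busulfan and from 56.8 to 108.6 with it.

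Mast cell markers had the lowest median log2 fold change of the lists described here, -2.18. Of 11 markers in the table, 5 were tested, and all 5 of those were lower with busulfan, against 1.98% of genes tested. Cpa3 had at most 0.250 CPM with busulfan and Mcpt4 a median of 0.339, so both passed the filter through libraries without it. This favours a fall among tested members, so the share is not separate support. Mcpt1, a mast cell chymase of mucosa, lies on chromosome 14. It ran from 32.1 to 85.4 CPM without busulfan, with a median of 38.8. With busulfan 5 libraries ran from 6.40 to 10.004 CPM, and B+A10 replicate 2 had 24.8. The groups did not overlap (log2 fold change -2.18, SE 0.35, edgeR adjusted p = 0.0054).

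Mcpt2, a second mucosal protease, had medians of 14.9 CPM without busulfan and 2.56 with it, and B+A10 replicate 2 was again highest of the busulfan libraries at 8.63. Mcpt4 fell by 2.47 and Cpa3, mast cell carboxypeptidase, by 3.00 on the log2 scale. Both are low genes, with medians of 1.83 and 0.946 CPM without busulfan and 0.339 and 0.121 with it. Mcpt genes are close paralogs, so reads may have been divided between them. Kit, the stem cell factor receptor, which other gut cells also carry, fell by 0.44 with overlapping groups. Its log2 fold change was -0.72 at AOS 0 and -0.17 at AOS 10 (interaction edgeR adjusted p = 0.499). The summed level of the markers ran from 66.4 to 148.7 CPM without busulfan and from 23.3 to 50.1 with it. None of the 5 passed without both B+A0 libraries that stand apart. Kit lost its call without any 1 of AOS0 replicates 1, 2 and 3, AOS10 replicate 2, or B+A0 replicates 2 and 3. Mcpt1, Mcpt2, Mcpt4 and Cpa3 kept theirs in each such fit.

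Tuft cells are chemosensory cells of the epithelium. Of 9 tested markers, 4 were lower, against 1.98% of genes tested, and all 9 had a log2 fold change below 0, with a median of -0.95. Avil, an actin-binding protein of the tuft, ran from 4.21 to 8.68 CPM without busulfan and from 2.43 to 3.57 with it. Its groups did not overlap (log2 fold change -0.95, SE 0.18, edgeR adjusted p = 0.013). Ptgs1, the prostaglandin synthase COX-1, fell by 1.61 and the cation channel Trpm5 by 0.73, both with overlapping groups. Ptgs1 had a median of 0.396 CPM with busulfan and passed the filter through libraries without it, which favours a fall.

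Dclk1, the most used tuft marker, had medians of 3.81 and 2.04 CPM and did not pass (log2 fold change -0.63, edgeR adjusted p = 0.208). Pou2f3, the transcription factor that specifies tuft cells, was at -0.77 (edgeR adjusted p = 0.091). The count of tuft genes lower was 1 without AOS0 replicate 1, and 2 without any 1 of AOS0 replicate 3, AOS10 replicate 3, B+A0 replicate 3 or B+A10 replicate 1. It was 0 without both B+A0 libraries that stand apart. Ptgs1 is also expressed outside tuft cells.

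**Figure D3:**
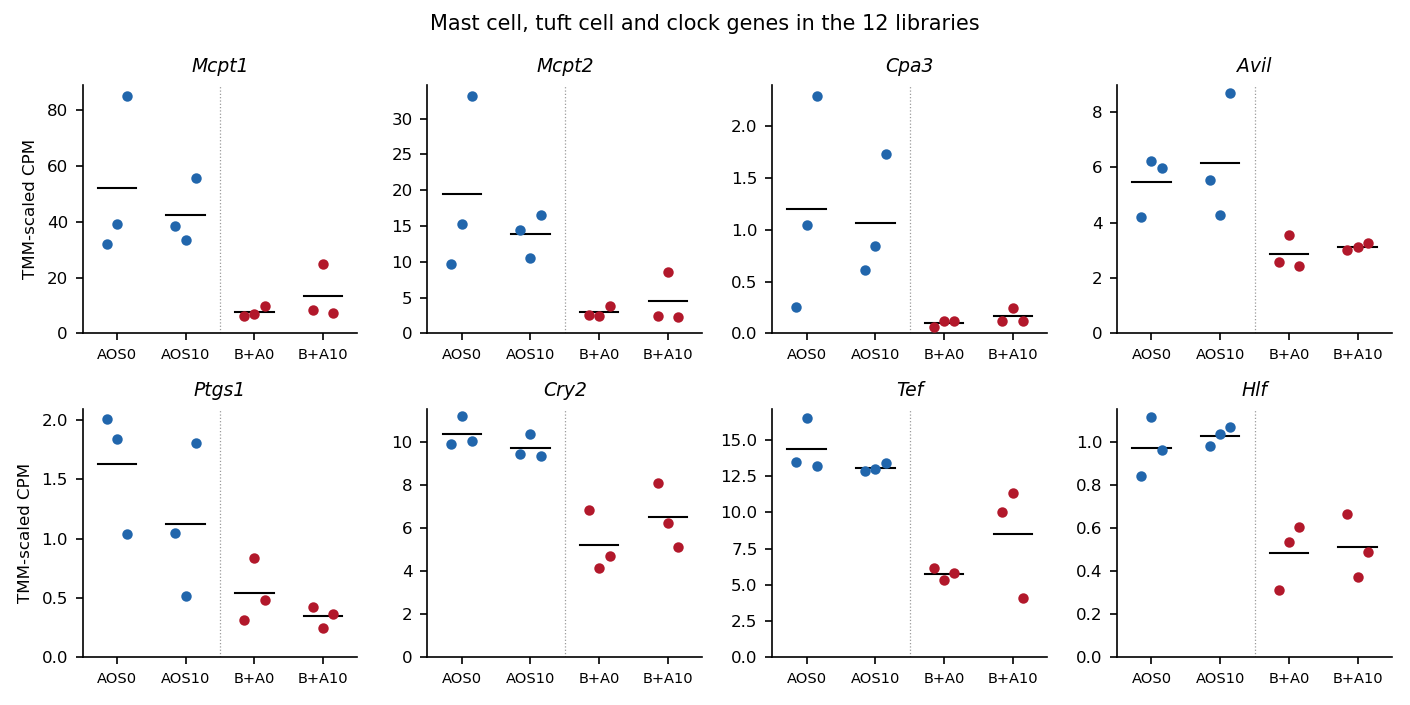
TMM-scaled CPM of 3 mast cell genes, 2 tuft cell genes and 3 clock genes in each library, by group, with points, colours and lines as for the chaperones. For Mcpt1 the busulfan libraries sit at 6.40 to 24.8 and the others at 32.1 to 85.4; Ptgs1 is the one gene plotted whose groups overlap.

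Circadian clock and output genes moved in both directions, and of 18 tested members 5 were lower and 2 were higher, against 1.98% and 2.78% of genes tested. Cry2, a repressor of the clock, ran from 9.35 to 11.2 CPM without busulfan, with a median of 9.98, and from 4.17 to 8.13 with it, with a median of 5.70. Its log2 fold change was -0.78 (SE 0.15, edgeR adjusted p = 0.011). Tef and Hlf, output factors of the PAR bZIP family, fell by 0.97 and 0.99, and Per3, a period gene, by 0.56. For each of these genes the groups did not overlap.

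The other period genes went up. Per1 had medians of 19.1 and 34.5 CPM (log2 fold change 0.92) and Per2 medians of 34.5 and 50.1 (0.56), each with overlapping groups. The core activators Arntl and Clock did not pass, with log2 fold changes of 0.08 and -0.02. The count of clock genes lower was 2 without B+A0 replicate 2, 3 without any 1 of AOS0 replicates 1, 2 and 3 or AOS10 replicates 2 and 3, and 0 without both B+A0 libraries that stand apart. The count higher fell to 1 without any 1 of AOS0 replicates 1 and 3, AOS10 replicates 1, 2 and 3, B+A0 replicates 2 and 3, or B+A10 replicate 1. The hour of tissue collection is not given in the sources used here.

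T and natural killer cell genes had unlike values at the AOS levels. All 25 tested markers had a log2 fold change below 0, with a median of -0.90, but 3 passed: the coreceptor Cd4 fell by 1.87, the receptor Cd5 by 1.45 and the chemokine Ccl5 by 1.20. That was 3 of 25, against 1.98% of genes tested, and DESeq2 called 10 of the 25 lower, against 514 of all 12329. The median was -1.72 at AOS 0 and -0.20 at AOS 10. Before adjustment, 21 of the 25 had an interaction p under 0.05, against 6.85% of all genes, and their smallest adjusted interaction p was 0.499.

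The summed level of these markers ran from 254.0 to 450.6 CPM without busulfan, from 68.4 to 159.9 in B+A0 and from 167.5 to 433.9 in B+A10. The highest busulfan library was B+A10 replicate 2. Without that library 20 markers were called lower, in a fit that called 1186 of all genes, 47.2% of them lower. The count was 0 when any 1 of AOS0 replicate 3, B+A0 replicate 2 and B+A10 replicate 1 was left out, and 1 when AOS0 replicate 1 or B+A0 replicate 3 was. Cd3e, a subunit of the T cell receptor complex, ran from 3.43 to 9.32 CPM without busulfan and from 1.39 to 10.6 with it, and did not pass (log2 fold change -0.65, edgeR adjusted p = 0.348).

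Of the 10 largest falls named by the rule on groups apart and a mean of at least 1 CPM, those not in the mast cell or T cell lists were Matk, Mpeg1, Trf, Cd53, Timp2 and Fbxl21. Cd53, a leukocyte tetraspanin, had medians of 2.17 and 0.843 CPM (log2 fold change -1.20), and Mpeg1, the pore-forming perforin-2 of phagocytes, had 1.64 and 0.768 (-1.32). Cd53 was at -1.92 at AOS 0 and -0.51 at AOS 10 (interaction edgeR adjusted p = 0.499). Matk, a kinase of blood cells, fell by 1.32, Trf, transferrin, by 1.24, Timp2, an inhibitor of metalloproteinases, by 1.19 and Fbxl21, an F-box protein, by 1.16. Cd53, Mpeg1 and Timp2 lost their calls without B+A0 replicate 2, and Timp2 also without AOS0 replicate 1 or 3. Fbxl21 was lost with any library left out other than B+A0 replicates 1 and 3 and B+A10 replicates 2 and 3. Among macrophage and monocyte markers 6 were tested, with 3 above 0, 3 below and a median log2 fold change of 0.0074. Of the 6, 1 was higher, the efferocytosis receptor Mertk, by 0.42 on the log2 scale, where 2.78% of genes tested were higher. Mertk was not called without any 1 of AOS0 replicates 1 and 3, AOS10 replicates 1, 2 and 3, or B+A10 replicate 1. The summed macrophage level was 134.6 to 171.4 CPM without busulfan and 148.2 to 177.2 with it. Mertk is part of that sum, with 41.8 to 57.9 CPM without busulfan and 50.4 to 86.5 with it.

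Among falls with the smallest p, Srsf5, a splicing factor of the SR family, ran from 109.0 to 144.3 CPM without busulfan and from 58.1 to 93.2 with it. The groups did not overlap, and the log2 fold change was -0.70 at both AOS levels (SE 0.09 in the joint model, edgeR adjusted p = 0.0012). Vstm5 fell by 0.44, Rufy2 by 0.65, Tcta by 0.41 and Socs2, a feedback inhibitor of cytokine signalling, by 0.39. In each of these the groups were apart. Srsf5, Vstm5 and Rufy2 passed under every alternative that was run.

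Xenobiotic enzymes of the enterocyte had more members below 0 than above. Among cytochrome P450 enzymes and their receptors, 4 of 29 tested genes were lower, against 1.98% of genes tested, and 0 higher, with a median log2 fold change of -0.37. Cyp3a25, a drug-metabolising P450, had medians of 61.9 and 36.9 CPM and fell by 0.95, and Cyp2c66, Cyp2c65 and Cyp2c68 fell by 1.00, 0.75 and 0.49. The Cyp2c genes are close paralogs, so their counts may share reads. Among glucuronidation, sulfation and carboxylesterase genes 4 of 25 were lower: Ugt2b36, Ugt2a3, Sult1b1 and Ces1d, by 0.59, 0.57, 0.48 and 1.12. Both lists had unlike values at the AOS levels. The P450 median was -0.61 at AOS 0 and -0.15 at AOS 10, and the median of the second list -0.34 and -0.07. Before adjustment, 8 of 29 and 7 of 25 had an interaction p under 0.05 in edgeR, against 6.85% of all genes. Their smallest adjusted interaction p were 0.499 and 0.579.

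Other enterocyte genes lay on the same side in the same libraries, with 23 of 24 brush border and digestion genes below 0. B+A0 replicates 2 and 3 had the lowest summed levels of P450 genes, 1580 and 1471 CPM, and of brush border genes, 14621 and 13955 CPM. The other 10 libraries ran from 1828 to 2706 and from 16954 to 24464 CPM. The part of this in the P450 counts was not tested. Single libraries moved both counts. The P450 count was 1 without any 1 of AOS0 replicates 1 and 3, AOS10 replicate 3, B+A0 replicates 2 and 3 or B+A10 replicate 1. It was 2 without AOS0 replicate 2 or AOS10 replicate 2, and 9 without B+A10 replicate 2. That last fit called 1186 of all genes, 47.2% of them lower. The count for conjugation genes was 0 without any 1 of AOS0 replicates 1, 2 and 3, AOS10 replicates 2 and 3 or B+A0 replicate 3, and 1 when B+A0 replicate 2 or B+A10 replicate 1 was left out. Adh1, the alcohol dehydrogenase that oxidises retinol, fell by 0.72, with -1.11 at AOS 0 and -0.34 at AOS 10 (interaction edgeR adjusted p = 0.499), and was lost without B+A0 replicate 2.

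Among other epithelial groups, goblet cell genes had 2 of 17 tested lower (11.8%) and enteroendocrine genes 2 of 19 (10.5%), against 1.98% of genes tested. Of 24 brush border and digestion genes 0 passed in edgeR, with 5 at an unadjusted p under 0.05, close to the 22.9% of all genes, and a median log2 fold change of -0.15. DESeq2 called 1 of them lower, and called 1215 of all 12329 genes, of which 42.3% were lower. Among goblet cell genes Klk1 and Clca1, a secreted mucus protein, fell by 0.37 and 0.53, while the mucin Muc2 did not pass (-0.20, edgeR adjusted p = 0.210). Klk1 and Clca1 each lost their call without any 1 of AOS0 replicates 2 and 3, AOS10 replicates 2 and 3, B+A0 replicates 2 and 3 or B+A10 replicate 1, and Clca1 also without AOS0 replicate 1. Their edgeR adjusted p was 0.168 and 0.167 without both B+A0 replicates 2 and 3. Among enteroendocrine genes the hormones Sst and Nts fell by 0.75 and 0.91, and Nts was lost with any library left out other than B+A0 replicate 1 and B+A10 replicate 2, with an edgeR adjusted p of 0.222 without both B+A0 replicates 2 and 3. Chga, the granin of these cells, was at -0.17 (edgeR adjusted p = 0.306). Pigr, which carries antibodies across the epithelium, fell by 0.27, with medians of 5860 and 4916 CPM and groups apart, and was lost without any 1 of AOS0 replicates 2 and 3, AOS10 replicate 2, B+A0 replicates 2 and 3 or B+A10 replicate 1.

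Paneth cell genes had a log2 fold change above 0 in all 15 tested, with a median of 0.47, but 0 passed in edgeR. Before adjustment 11 had a p under 0.05, against 22.9% of genes tested, and DESeq2 called 4 higher. Over all 12329 genes DESeq2 called 1215, of which 42.3% were lower. Lyz1, the lysozyme of Paneth cells, ran from 897.1 to 2755 CPM without busulfan and from 2258 to 2941 with it (log2 fold change 0.52, edgeR adjusted p = 0.146). Its groups overlapped, and AOS10 replicate 3 was the lowest library. The Defa members of this list are near-identical copies whose counts are uncertain.

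**Figure D4:**
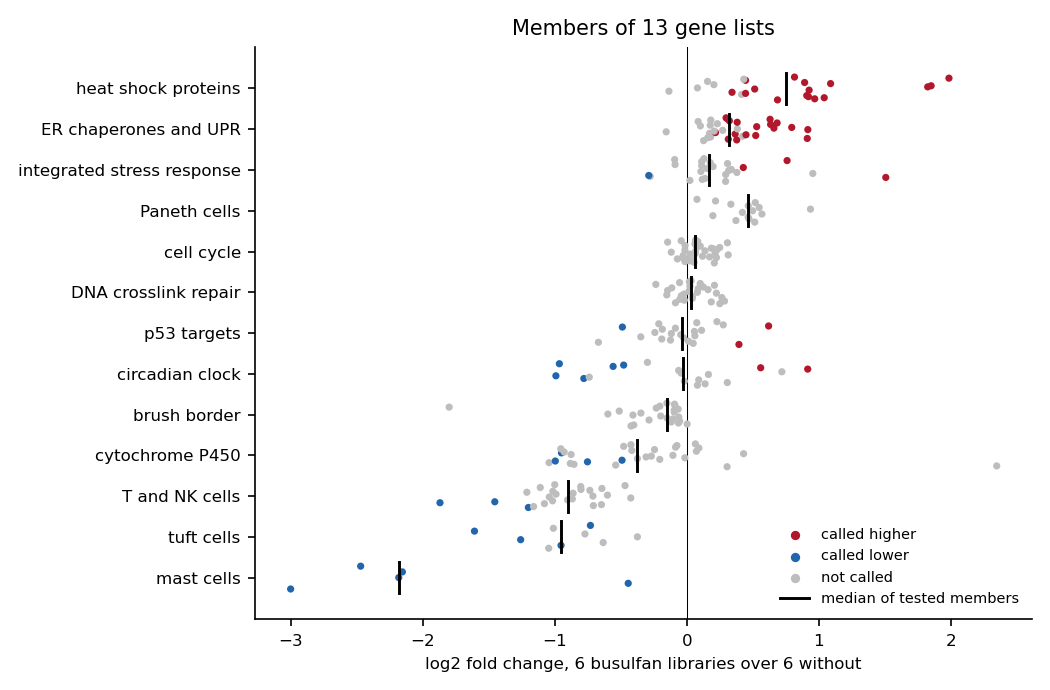
Log2 fold change of each tested member of 13 gene lists over the 12 libraries. Red points were called higher, blue lower and grey not called at an edgeR adjusted p under 0.05, and black lines are list medians. The heat shock median stands at 0.75 and the mast cell median at -2.18, and cell cycle genes crowd around 0.07.

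Gene groups tied to DNA damage and growth had few calls. Of 27 DNA crosslink repair genes and 35 cell cycle and replication genes, 0 passed in edgeR, with median log2 fold changes of 0.03 and 0.07. Before adjustment 2 and 6 of them had a p under 0.05, a share below the 22.9% of all genes. DESeq2 called 1 higher in each list, and called 1215 of all 12329 genes, of which 42.3% were lower. Mki67, a proliferation marker, ran from 137.1 to 208.4 CPM without busulfan and from 129.5 to 229.0 with it. Of 22 tested p53 targets, 2 were higher and 1 was lower, against 2.78% and 1.98% of genes tested. Tigar, a fructose bisphosphatase, ran from 13.02 to 13.88 CPM without busulfan and from 17.7 to 26.9 with it (log2 fold change 0.62, SE 0.09, edgeR adjusted p = 0.0039). Aen, a nuclease of apoptosis, rose by 0.40 and was lost with any library left out other than B+A0 replicate 1 and B+A10 replicates 2 and 3, with an edgeR adjusted p of 0.254 without both B+A0 replicates 2 and 3. Sesn1, a sestrin, fell by 0.49 with groups apart.

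The canonical p53 targets Cdkn1a and Mdm2 did not pass. Cdkn1a, the cell cycle inhibitor p21, had medians of 148.0 and 124.7 CPM (log2 fold change -0.12, SE 0.13), and Mdm2, the ligase that removes p53, had 37.3 and 38.9 (0.06, SE 0.06). Of 19 crypt stem cell markers 0 were called by edgeR and 3 had an unadjusted p under 0.05, below the 22.9% of all genes. DESeq2 called 1 of them, against 1215 of all 12329 genes. Lgr5, the stem cell receptor, had medians of 13.9 and 12.3 CPM (-0.02, SE 0.17). The sources used here do not say how long after busulfan the tissue was taken.

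The contrasts within each AOS level share no library, so they can be set side by side. At AOS 0, 210 genes were higher and 239 lower (1.70% and 1.94% of those tested). At AOS 10, 18 were higher and 2 lower (0.146% and 0.0162%). Before adjustment 22.1% of genes had a p under 0.05 at AOS 0 and 10.2% at AOS 10. Of the 210 higher at AOS 0, 197 had the same sign at AOS 10 (93.8%, against 50.9% of all genes above 0 there), and 110 also had an unadjusted p under 0.05 there (52.4%, against 6.07%). Of the 239 lower at AOS 0, 202 kept the sign (84.5%, against 49.1%) and 53 had such a p (22.2%, against 4.16%). A count at 1 level and not at the other does not show that the levels differ.

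The difference between levels was tested itself. The interaction of busulfan and AOS had 0 genes called in edgeR, with 844 genes at an unadjusted p under 0.05 (6.85%) and a smallest adjusted p of 0.499, and DESeq2 called 17. On simulated counts of 12254 genes the interaction test recovered 63% of 2-fold and 91% of 4-fold differences. These were set in a random part of the genes averaging at least 1 CPM, with noise independent between genes. The heat shock list had medians of 0.76 at AOS 0 and 0.72 at AOS 10, and the reticulum list 0.37 and 0.28. The tuft list had -0.91 at both levels.

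Of the 16 heat shock genes called higher in the joint model 13 were also called at AOS 0 and 4 at AOS 10, and of the 18 reticulum genes 14 and 3. Of all 343 genes called higher, 146 were also called higher at AOS 0 and 17 at AOS 10. The joint model used the same libraries, so these counts are not separate support. Of the genes called in the joint model, 15 were also called at both levels, among them Hsph1, Hspa8, Stip1, Hspa4l, Creld2, Herpud1, Hyou1, Uggt1, Atp2a2, P4ha1 and Banp. Hsph1 had log2 fold changes of 2.01 at AOS 0 and 1.97 at AOS 10, and Hspa8 of 0.97 and 0.82. Slpi, a secreted protease inhibitor at low level, was the gene called lower at both, with medians of 1.68 CPM without busulfan and 0.397 with it. Its groups were apart. Conversely, 349 of the 587 genes passed in the joint model and at neither level alone.

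**Figure D5:**
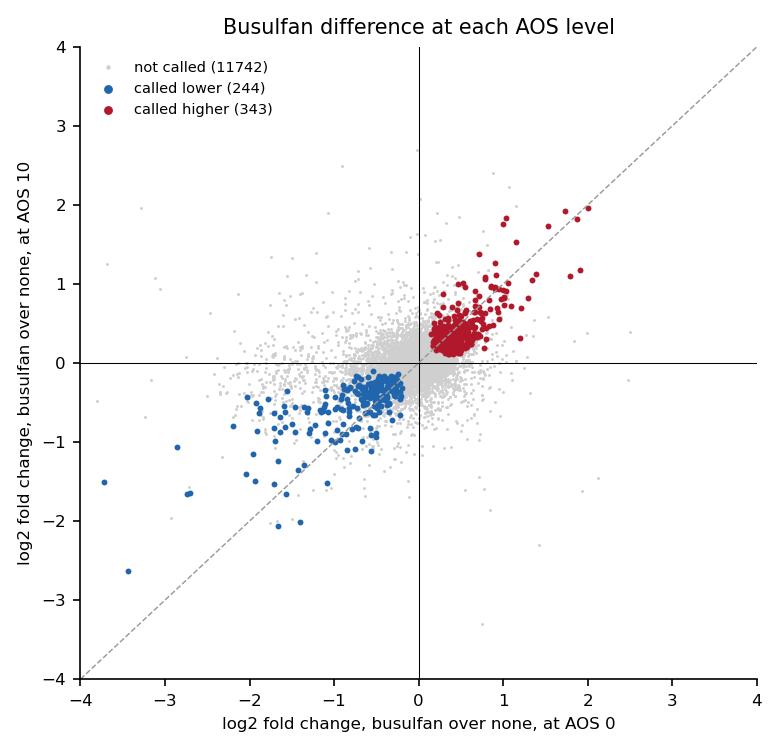
Log2 fold change of busulfan at AOS 0 (horizontal) and at AOS 10 (vertical) for the genes tested, with 343 called higher in red, 244 called lower in blue and the rest in grey; 10 genes lie outside the axes. The dashed line marks equal change, and all coloured points lie in the 2 quadrants of equal sign. The coloured genes were called in the joint model on the same libraries, which favours equal signs, so this is not separate support.

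Some genes had opposite signs at the AOS levels and lay near 0 in the joint model. Ugcg, the glucosylceramide synthase, had a log2 fold change of -0.38 at AOS 0 and 0.37 at AOS 10, and Pard3b, a polarity protein, had -0.37 and 0.26. Pard3b ran from 17.6 to 20.6 CPM in B+A0 and from 28.6 to 30.1 in B+A10, against 23.2 to 25.7 in the libraries without busulfan. Interferon-stimulated genes had medians of 0.42 at AOS 0 and -0.27 at AOS 10, with 12 of 31 at an unadjusted interaction p under 0.05, against 6.85% of all genes. The antiviral sensor Oas1a was at 125.6 to 172 CPM in AOS0, and at 242 to 353 in AOS10. None of these interactions passed after adjustment in edgeR.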

How the data were processed

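RNA from small intestine of ICR mice was sequenced, with 12 libraries in 4 groups set by the treatment labels. Per the file headers, the deposited table holds read counts and FPKM per gene and library. The deposited counts are estimated counts, since 8.90% to 9.33% of values per library are not whole (tolerance 1e-06), and they were rounded. The deposited FPKM values were used in 1 alternative, as log2(FPKM + 1). Per the submitters' processing notes the genome build is mm10. How reads were aligned and counted, on which annotation and with or without strand, is not stated in these sources, so reads of a gene and of an overlapping or antisense partner may be mixed.

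Genes were kept with edgeR 4.0.16 filterByExpr over the 4 groups, scaled by TMM, and tested with edgeR's quasi-likelihood test in R 4.3.3 (Benjamini-Hochberg, 0.05). The joint model had busulfan and AOS level. A 4-group model gave the contrasts within each level and the interaction. SE is the size of the log2 fold change divided by the square root of F. Alternatives used DESeq2 1.42.0, limma 3.58.1, other filters and scaling, and left-out libraries. In simulated counts of 12249 genes, 2-fold and 4-fold changes were set in a random part of those averaging at least 1 CPM. The joint model recovered 92% of the 2-fold and 99% of the 4-fold changes. Simulated noise was independent between genes, so shifts shared by many genes of a library were absent. Changes smaller than 2-fold were not simulated. Libraries of 1 group differed by 8.69 to 37.3 times the variance of Poisson sampling.

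The genes, gene lists and comparison were chosen with earlier results of these data known. The genes named comprise the 10 largest changes in each direction that passed, averaged 1 CPM or more and had non-overlapping groups of 6, the 5 smallest p in each direction of the joint model and of the interaction, up to 4 called members of each list, and 12 fixed genes. Unnamed gene models and receptor segments were not named, and some called list members are not reported here. Promoter windows and gene positions are from RefSeq on GRCm38.p6, and matched 9897 and 12282 of 12329 tested genes by gene ID. Figures were drawn with matplotlib.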

Additional observations from a re-analysis of the deposited data

Results flagged for a closer look

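Among 190 sets of 6 libraries, with and without busulfan for 95 named genes, 12 held 1 library farther from the others than Dixon's 95% limit allows on log2 CPM. That is 6.32% of the sets. Random draws from 1 distribution pass the limit in about 1 in 20 sets. Most of these genes were named for their values in these libraries and each set spans both AOS levels, so the rates cannot be compared.

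Among libraries without busulfan, Atp2a2 was lowest in AOS0 replicate 1 at 404.9 CPM, with the others from 451.1 to 480.9. AOS10 replicate 1 was lowest for Rufy2 at 11.5 CPM and for Socs2 at 73.5, below 13.6 and 80.5. AOS0 replicate 2 was highest for Tef at 16.5 CPM and for Cyp3a25 at 104.5, and lowest for Psat1 at 12.8. The next libraries stood at 13.5, 65.3 and 17.1. AOS0 replicate 1 was lowest for Cyp2c68 at 16.7 CPM.

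Among libraries with busulfan, B+A10 replicate 2 was highest for the mast cell protease Mcpt1 at 24.8 CPM, where the others reached 10.004. The same library was highest for St3gal4 at 1.69 CPM. B+A10 replicate 3 was highest for Socs2 at 71.1 CPM, and B+A10 replicate 1 for Spry4 at 5.34, above 61.3 and 2.85. B+A0 replicate 1 was highest for Klk1 at 131.1 CPM, above 118.3. The reason for these distances was not tested.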

How the results depend on the processing

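All 75 named genes that were called had the same direction under the alternatives that gave them a value, and 20 of them passed in each, among them Hsph1, Hspa8, Creld2, Herpud1, Hyou1, Pdia4, P4ha1 and Banp. With each library left out in turn, 39 stayed called. DESeq2 called 701 genes higher, 514 lower and 17 in the interaction. limma on FPKM called 226 higher. Leaving out B+A0 replicates 2 and 3 together, chosen from a principal component analysis of these data, left 54 higher and 6 lower. With each library left out, the count higher ran from 154 to 713, the count lower from 70 to 560, and the interaction from 0 to 1. Other scaling and filters, robust dispersion, no AOS term, and the mean of both levels in the 4-group model kept each count within 1.5 times. For the changes in count the cause was not tested.

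With the replicate number as a block, 194 genes were higher and 129 lower. The labels do not say that numbers pair libraries, and the deviations of same-numbered libraries correlated between -0.095 and 0.173, over 0.1 in 1 of 6 pairs, so pairing was not shown.

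Genes with medians near 1 CPM, such as Cpa3, Matk and Trf, rest on few reads. At 3 libraries per group the interaction test recovered 63% of simulated 2-fold differences, in counts without shifts shared by many genes of a library.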

Other observations

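Some genes called with busulfan belong to groups not described above. Sfn, the epithelial 14-3-3 sigma protein, was chosen after its values were seen. It ran from 155.1 to 180.3 CPM without busulfan and from 246.5 to 308.9 with it (log2 fold change 0.66, SE 0.07, edgeR adjusted p = 7.016e-04), and it was called at both AOS levels. Txnrd1, thioredoxin reductase of the cytosol, ran from 312.0 to 354.3 CPM and from 392.7 to 442.9 (0.32), and was the one rise among 33 tested genes of glutathione and NRF2 pathways, close to the 2.78% of all genes. Gsta4, a glutathione transferase, fell by 0.54 and lost its call without AOS0 replicate 3. Abcc6, a transporter of the ABC family, fell by 0.75 with overlapping groups.

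Of 31 cholesterol and fatty acid synthesis genes 1 was higher and 1 lower, close to the 2.78% and 1.98% of all genes tested. Fdft1, squalene synthase, fell, with medians of 131.2 CPM without busulfan and 95.4 with it (log2 fold change -0.32). It lost its call without any 1 of AOS0 replicates 1, 2 and 3, AOS10 replicates 2 and 3, B+A0 replicates 1 and 2 or B+A10 replicate 1.

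Immediate early genes had 1 call among 19 tested, close to the 4.76% of all genes. Myc rose by 0.48 and lost its call with any library left out other than AOS10 replicate 1, B+A0 replicate 1 and B+A10 replicates 2 and 3, with an edgeR adjusted p of 0.269 without both B+A0 replicates 2 and 3. Egr1, chosen after its values were seen, had 5.94 to 9.52 CPM without busulfan and 7.51 to 11.8 in B+A0. In B+A10 replicates 1, 2 and 3 it had 311.9, 114.8 and 22.0 CPM. It was called at AOS 10 (log2 fold change 4.29, edgeR adjusted p = 0.033) and missed the threshold in the joint model (2.62, adjusted p = 0.064).

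St3gal4, a sialyltransferase, had the largest fall by fitted value. It had 291.3 CPM in AOS10 replicate 3 and at most 8.55 in the other 11 libraries. The log2 fold change was -5.69 with that library and -2.09 without it, and the adjusted p ran from 0.021 to 0.201 over the alternatives (edgeR and limma). It lost its call without any 1 of AOS0 replicates 1, 2 and 3, B+A0 replicate 2 or B+A10 replicates 1, 2 and 3.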
